A study of Rattus norvegicus with 9 samples.

Results

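The 36 genes described here run the cell division cycle or copy DNA, and their transcripts are commonly read as marks of proliferating cells. They were taken by name, ignoring case, from a deposited table of 30315 loci. All 36 were found, and the only name at more than 1 locus, Rrm2, was read at the locus with the highest mean. RNA of the renal outer medulla, the kidney zone that holds the thick ascending limbs, was sequenced from 9 rats, 1 library each, of MCW SS, a strain that is salt-sensitive. The 3 rats of HS_DT received GapmeRs against Dnmt3a and Tet3 into the kidney, at 2 mg/kg each, and ate a 4% NaCl diet for 7 days. A GapmeR is an antisense oligonucleotide that directs cleavage of its target RNA. The 3 rats of HS_SCR received a scrambled GapmeR at 4 mg/kg by the same route, with the same diet for 7 days. The 3 rats of 0.4% salt shared strain and surgery, ate 0.4% NaCl, and gave their tissue before any GapmeR or high salt. HS_SCR and 0.4% salt thus differ in GapmeR, diet and time together, and in part in the series of rat numbers given below. HS_DT and HS_SCR differ in the GapmeR.

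D-type cyclins with Cdk4, and E-type cyclins with Cdk2, phosphorylate the pocket proteins of the retinoblastoma family, which releases E2F factors to switch on the genes of S phase. Origins are licensed when Cdc6 loads the Mcm helicase, and forks then run with the Pcna clamp and a supply of nucleotides made by ribonucleotide reductase, thymidylate synthase and thymidine kinase. Cyclins A and B with Cdk1, and then the spindle and checkpoint proteins, carry cells through mitosis. Most tubule cells of the adult kidney are out of the cycle, and tubule repair after injury is known for re-entry into it.

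The values are FPKM, fragment counts scaled by transcript length and library size, so levels can be set side by side between genes. Absolute sequencing depth is unknown. Relative to 0.4% salt replicate 1 it was estimated at 0.769 to 1.36. HS_SCR replicate 3 stood apart on the second principal component, at -51.5 against -2.34 to 24.0 in the other 8 libraries. Several results are given both with and without it. The 2 GapmeR targets had a higher mean in the libraries labelled HS_DT than in HS_SCR: Dnmt3a averaged 9.999 ± 1.17 FPKM in HS_DT, 7.70 ± 2.33 in HS_SCR and 12.8 ± 0.624 in 0.4% salt (SD, n = 3 each), and Tet3 averaged 8.03 ± 0.465, 6.24 ± 1.71 and 9.16 ± 0.612 FPKM in the same order. All 10 thick ascending limb markers averaged 1 FPKM or more.

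All 36 genes averaged 1 FPKM or more across libraries, the minimum for a test, so none was set aside. Cdk4 (mean 90.4 FPKM), Ccnd1 (73.6 FPKM) and Pcna (56.1 FPKM) were the most abundant. Next came Rrm1 at 24.7 FPKM and Mcm7 at 20.0 FPKM. The 10 spindle and checkpoint genes were lower than these, with means from 1.95 FPKM for Bub1b to 8.12 FPKM for Cdc20. Some genes of G1 and replication lay in the same range, such as Ccne1 (2.29 FPKM), E2f1 (3.29 FPKM) and Mcm3 (8.05 FPKM). The mitotic kinase gene Cdk1 lay above it, at 13.1 FPKM. Cdc6 was the lowest of all 36, at 1.57 FPKM. In bulk tissue a lower value can reflect fewer cells that express a gene or less RNA per cell, and these cannot be told apart.

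**Figure D1:**
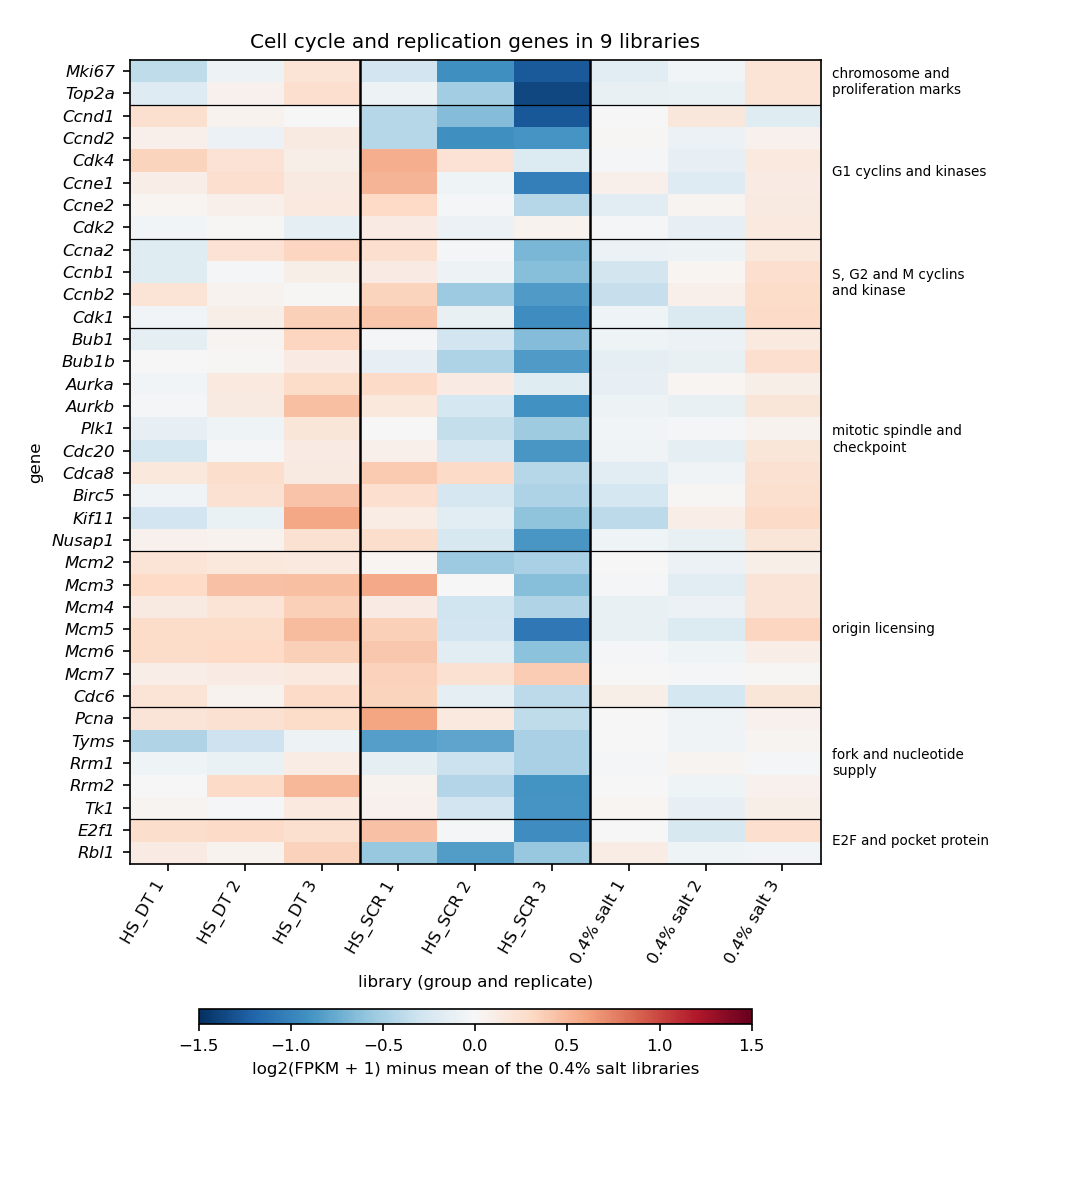
Each cell shows log2(FPKM + 1) of 1 gene (row) in 1 library (column) minus the mean of the 3 libraries of 0.4% salt, from blue (lower) to red (higher). Genes are grouped by role. The column of HS_SCR replicate 3 is the bluest, and it holds the lowest of the 9 values for 30 of the 36 genes.

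The comparison of HS_SCR with 0.4% salt asks what differs after 7 days of high salt with a scrambled GapmeR. Ccnd1, Ccnd2, Rbl1 and Tyms fell, and Mcm7 rose. These 5 of 36 genes are 13.9% of the set, and 13.1% of all 14338 tested loci were called changed in this comparison, so the share called was near the background. By direction, 4 of 36 genes fell (11.1%, against 4.88% of all loci) and 1 rose (2.78%, against 8.2%). At an unadjusted p under 0.05 there were 8 of 36 genes (22.2%, against 32% of all loci). The fit was limma on log2(FPKM + 1) with all 9 libraries, and a call is an adjusted p under 0.05 after Benjamini-Hochberg adjustment over all tested loci. The other 31 genes did not pass.

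Ccnd1 and Ccnd2 are the D-type cyclins of the set, partners of Cdk4 that carry growth signals into the cycle. Both were lower in every HS_SCR library than in any 0.4% salt library. Ccnd1 (rn5 chr1:224960091-224969802) was at 61.1, 52.2 and 33.7 FPKM in HS_SCR replicates 1 to 3, against 83.4, 93.4 and 72.8 FPKM in 0.4% salt. Its log2 change was -0.79 ± 0.20 (SE), with a limma adjusted p of 0.0386. Without HS_SCR replicate 3 it was -0.54 and passed (limma adjusted p = 0.0148), in a fit where 15.7% of all loci fell. Ccnd2 (chr4:231905195-231932616, written CCND2 in the table) was at 14.5, 10.1 and 10.4 FPKM in HS_SCR and 20.3, 18.7 and 21.0 FPKM in 0.4% salt. Its log2 change was -0.74 ± 0.14 (SE, limma adjusted p = 0.0140). The ranges did not overlap for either cyclin, and the lowest library was HS_SCR replicate 3 for Ccnd1 and HS_SCR replicate 2 for Ccnd2. Cdk4 (chr7:70527540-70533257), their kinase, showed no such separation, with 119, 94.3 and 70.3 FPKM in HS_SCR and 79.4, 74.9 and 90.4 FPKM in 0.4% salt. The HS_SCR libraries of Cdk4 lay on both sides of the 0.4% salt range, and its log2 change of 0.18 ± 0.18 (SE) did not pass (limma adjusted p = 0.502). The E-type cyclins Ccne1 and Ccne2 and their kinase Cdk2 stood at log2 differences of -0.19, -0.052 and 0.031 and did not pass either. Ccnd3, a D-type cyclin outside the set, was at 55.3, 49.1 and 29.5 FPKM in HS_SCR, against 40.0, 38.0 and 38.4 FPKM in 0.4% salt. Its HS_SCR values lay on both sides of the 0.4% salt range, and it did not pass.

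Rbl1 (chr3:158398176-158452482) encodes the pocket protein p107, which binds E2F factors. It was at 3.56, 2.80 and 3.56 FPKM in HS_SCR, against 6.32, 5.47 and 5.58 FPKM in 0.4% salt. The 3 HS_SCR values lay close together and all below the lowest 0.4% salt value. The log2 change was -0.66 ± 0.12 (SE, limma adjusted p = 0.0140). E2f1, the activating E2F factor of the set, was at 4.51, 3.00 and 1.14 FPKM in HS_SCR and 3.05, 2.44 and 3.85 FPKM in 0.4% salt. Its HS_SCR values reached above and below those of 0.4% salt, and its log2 difference of -0.17 ± 0.30 (SE) did not pass (limma adjusted p = 0.723).

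Tyms (chr9:121361599-121381532), thymidylate synthase, makes the thymine nucleotide for DNA. It was at 11.3, 11.6 and 14.5 FPKM in HS_SCR, against 20.9, 20.1 and 21.5 FPKM in 0.4% salt. The groups were well apart, and HS_SCR replicate 3 was here the highest of its group. The log2 change was -0.70 ± 0.12 (SE, limma adjusted p = 0.0127), the smallest adjusted p among the 36 genes in this comparison. Rrm1 (chr1:173726993-173751294), the large subunit of ribonucleotide reductase, was at 24.1, 21.0 and 18.7 FPKM in HS_SCR and 26.1, 27.3 and 26.1 FPKM in 0.4% salt. The ranges did not overlap, but the log2 difference of -0.31 ± 0.10 (SE) did not pass (limma adjusted p = 0.0787). Without HS_SCR replicate 1 it was -0.40 and passed (limma adjusted p = 0.0393). Without HS_SCR replicate 3 it was -0.23 and did not pass. Rrm2, the small subunit, and Tk1, thymidine kinase, stood at -0.43 and -0.37 and did not pass. The value of Rrm2 is uncertain, because the table holds the name at more than 1 locus. These are chr6:60701294-60761048 (mean 7.92 FPKM, used here) and chr19:36367877-36370407 (mean 7.23 FPKM). How fragments were shared between them is not given in the sources used here. The chr19 locus was at 9.76, 7.00 and 3.37 FPKM in HS_SCR and 6.07, 6.38 and 7.17 FPKM in 0.4% salt. Its HS_SCR values reached above and below those of 0.4% salt. Pcna (chr3:131376227-131380189), the sliding clamp, had 77.1, 56.3 and 38.7 FPKM in HS_SCR and 50.7, 48.9 and 53.2 FPKM in 0.4% salt. The spread of Pcna within HS_SCR spanned the whole 0.4% salt range, with a log2 difference of 0.12 ± 0.20 (SE, limma adjusted p = 0.725). Without HS_SCR replicate 3, Pcna rose, with a log2 change of 0.37 (limma adjusted p = 0.0486). In that fit 20.5% of all loci rose, against 2 of the 36 genes (5.56%).

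Mcm7 (chr12:21364242-21386267), a subunit of the hexameric Mcm helicase, was the only one of the 36 genes to rise. It was at 23.1, 21.1 and 23.5 FPKM in HS_SCR and 17.8, 17.7 and 18.2 FPKM in 0.4% salt. Every HS_SCR library was above every 0.4% salt library, and the log2 change was 0.32 ± 0.071 (SE, limma adjusted p = 0.0254). The other 5 helicase subunits measured, Mcm2 to Mcm6, stood at log2 differences from -0.33 for Mcm2 and Mcm5 to -0.023 for Mcm3, with overlapping ranges, and none passed. The difference between Mcm7 and the other subunits was not tested. The Mcm5 libraries illustrate the spread, at 17.8, 10.99 and 5.97 FPKM in HS_SCR and 12.6, 11.7 and 17.3 FPKM in 0.4% salt.

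Among the proliferation marks, the cyclins A and B with Cdk1, and the spindle and checkpoint genes, none passed. Mki67 (chr1:214925924-214952478), the Ki-67 protein that coats mitotic chromosomes, had the largest log2 difference of all 36 genes, at -0.82 ± 0.25 (SE), but its limma adjusted p was 0.0620. It was at 6.61, 3.93 and 2.88 FPKM in HS_SCR and 7.33, 8.04 and 9.71 FPKM in 0.4% salt, with ranges that did not overlap. Without HS_SCR replicate 1, Mki67 stood at -1.09 and passed (limma adjusted p = 0.0194). Without HS_SCR replicate 3 it stood at -0.60 and did not pass. Top2a (chr10:86698821-86735462), the topoisomerase that untangles replicated chromosomes, was at 9.21, 6.55 and 3.19 FPKM in HS_SCR and 9.005, 9.09 and 11.5 FPKM in 0.4% salt. HS_SCR replicate 1 lay inside the 0.4% salt range and the other two lay below it, and the log2 difference of -0.65 ± 0.29 (SE) did not pass (limma adjusted p = 0.160). Cdk1 (chr20:22694919-22734103), the mitotic kinase, was at 17.5, 11.9 and 6.29 FPKM in HS_SCR and 12.2, 10.9 and 15.99 FPKM in 0.4% salt. Its HS_SCR values thus held both the highest and the lowest of the 6, with a log2 difference of -0.21 ± 0.30 (SE, limma adjusted p = 0.668). Its cyclins Ccna2, Ccnb1 and Ccnb2 stood at -0.15, -0.20 and -0.35. Cdc20 (chr5:141050191-141054467), an activator of the anaphase-promoting complex, was at 9.32, 7.25 and 4.36 FPKM in HS_SCR and 8.43, 7.98 and 10.2 FPKM in 0.4% salt. Its log2 difference was -0.35 ± 0.23 (SE, limma adjusted p = 0.314). Without HS_SCR replicate 3 the differences were -0.30 for Top2a, 0.15 for Cdk1 and -0.090 for Cdc20, and none passed. The other 9 spindle and checkpoint genes ran from -0.48 for Bub1b, a checkpoint protein, to 0.087 for Cdca8, a chromosomal passenger subunit.

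Over the whole set, the mean was lower in HS_SCR than in 0.4% salt for 30 of 36 genes and higher for 6 (16.7%), while 52.2% of all tested loci had a higher mean. The median log2 difference of the 36 genes was -0.25, against 0.018 over all tested loci. Ranges were apart for 7 of 36 genes (19.4%, against 33.5% of all loci). HS_SCR lay wholly lower for 6 of them (16.7%, against 14.5% of all loci) and wholly higher for 1 (2.78%, against 19.1%). Without HS_SCR replicate 3 the median of the set was -0.014, and without HS_SCR replicate 1 it was -0.47. All 5 calls were lost without 0.4% salt replicate 1 or without replicate 2, where limma adjusted p ran from 0.0522 to 0.137 at similar log2 changes. In those fits 2.29% and 1.8% of all loci rose, and 0.83% and 0.621% fell. The 5 calls were also lost with a proximal tubule score of each library as a covariate, a fit that called none of the 14338 loci.

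**Figure D2:**
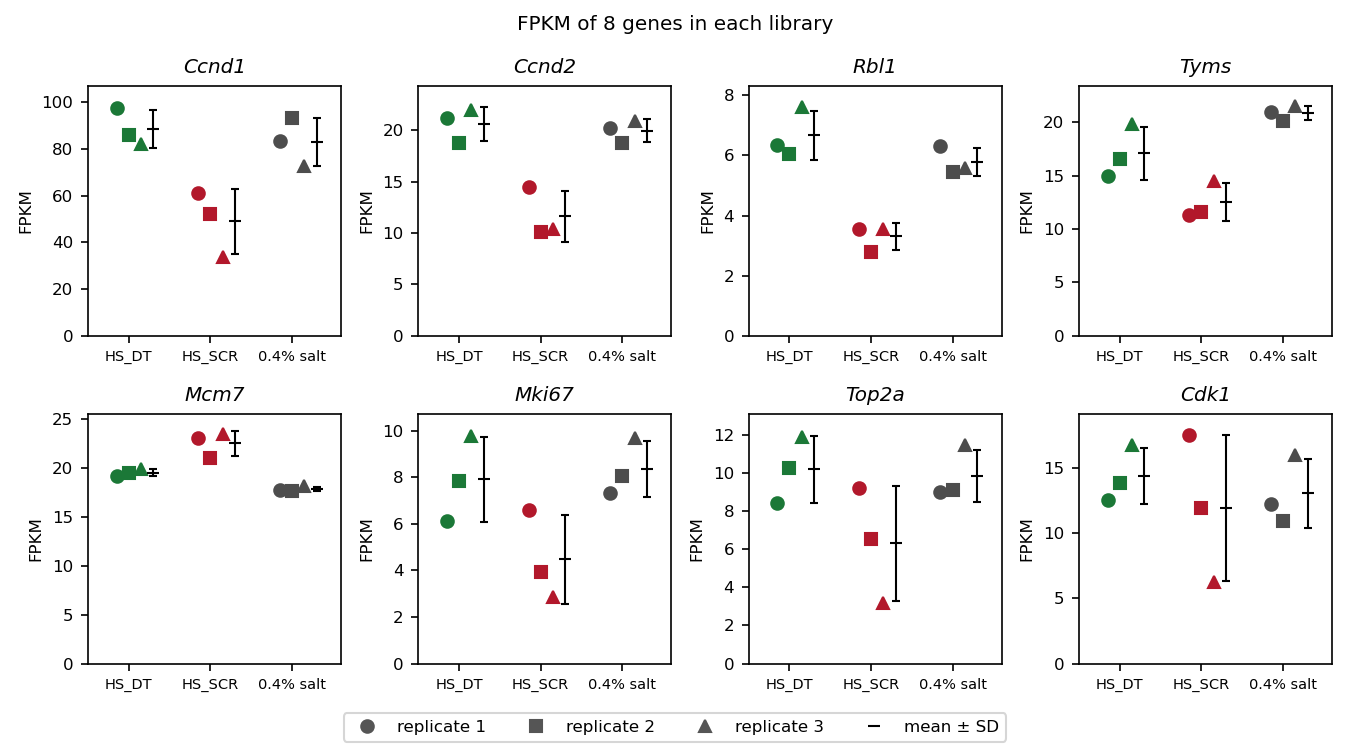
FPKM (vertical axis, from 0) of 8 genes in each of the 9 libraries, with symbols for the replicate and black bars for the mean ± SD of a group (n = 3). Ccnd1, Ccnd2, Rbl1 and Tyms of HS_SCR lie below both other groups, Mcm7 of HS_SCR lies above them, and Top2a and Cdk1 spread widely within HS_SCR.

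Promoters from RefSeq (build GRCr8) were matched by symbol for 27 of the 36 genes. Of the 5 genes called changed, 3 had an entry, and the 250 bases before the annotated start are shown because these genes are known in mammals as targets of E2F factors. Capitals mark matches, on either strand, to 3 motifs. The E2F site was searched as TTCCCGC or as TTCGCGC, and also as TTGCCGC or as TTGGCGC. The cell cycle homology region CHR was searched as TTTGAA or as TTCGAA, and the CCAAT box by the letters of its name.
Rbl1 promoter: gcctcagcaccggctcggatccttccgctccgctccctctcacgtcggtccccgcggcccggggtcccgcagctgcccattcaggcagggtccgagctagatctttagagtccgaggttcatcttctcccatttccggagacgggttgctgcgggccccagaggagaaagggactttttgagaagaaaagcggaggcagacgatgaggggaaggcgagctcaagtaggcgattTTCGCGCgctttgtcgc
Tyms promoter: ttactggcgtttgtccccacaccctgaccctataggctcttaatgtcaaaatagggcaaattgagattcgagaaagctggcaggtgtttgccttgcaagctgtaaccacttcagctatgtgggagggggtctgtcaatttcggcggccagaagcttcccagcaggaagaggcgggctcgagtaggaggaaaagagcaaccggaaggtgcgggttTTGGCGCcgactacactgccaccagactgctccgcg
Mcm7 promoter: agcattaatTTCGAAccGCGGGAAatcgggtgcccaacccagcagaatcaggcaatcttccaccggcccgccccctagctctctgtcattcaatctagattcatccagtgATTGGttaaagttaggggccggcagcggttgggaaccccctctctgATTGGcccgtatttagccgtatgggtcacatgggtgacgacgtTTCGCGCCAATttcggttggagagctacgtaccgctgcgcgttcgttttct
Rbl1 is on the minus strand at chr3:166289377-166289626, Tyms on the minus strand at chr9:120776084-120776333, and Mcm7 on the minus strand at chr12:22163179-22163428, all in GRCr8. Rbl1 holds a single E2F match that ends 11 bases before the start (positions -17 to -11), and Tyms a single one at -36 to -30. Mcm7 holds 3 E2F matches, of which those at -51 to -45 and -48 to -42 overlap each other, and the overlapping pair also overlaps a CCAAT box at -45 to -41. A further E2F match of Mcm7 lies at -233 to -227, beside a CHR match at -241 to -236, and CCAAT boxes read on the other strand begin at -140 and -94. The E2F letters were thus found both in genes that fell, Rbl1 and Tyms, and in the gene that rose.

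Among the 27 promoters, 11 held an E2F match (40.7%), against 7.97% of all 27457 promoters of the same length. A CHR match was in 11 of 27 (40.7%, against 17.3%), and a CCAAT box in 18 of 27 (66.7%, against 34.3%). By role, 4 of the 5 origin licensing genes with an entry held an E2F match (Mcm2, Mcm5, Mcm6 and Mcm7) and none of the 9 spindle and checkpoint genes did. Of those 9, 4 held a CHR match (Bub1b, Cdc20, Cdca8 and Birc5) and 6 a CCAAT box. A match describes letters in the window and does not show binding.

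The order of the libraries within a group was shared by most of the 36 genes. HS_SCR replicate 1 was the highest of its group for 34 of 36 genes (94.4%, against 34.8% of all tested loci), and HS_SCR replicate 3 the lowest for 30 (83.3%, against 44.0%). HS_DT replicate 3 was the highest of its group for 28 genes (77.8%, against 37.9%), and 0.4% salt replicate 3 the highest of its group for 33 (91.7%, against 31.8%). Relative to the mean of 0.4% salt, the median log2 position of the 36 genes was 0.035, 0.071 and 0.22 in HS_DT replicates 1 to 3, 0.14, -0.25 and -0.64 in HS_SCR, and -0.050, -0.078 and 0.16 in 0.4% salt. The HS_SCR libraries lay farther apart than those of either other group. The median coefficient of variation of the 36 genes was 8.84% in HS_DT, 33.4% in HS_SCR and 13.2% in 0.4% salt, against 8.99%, 18.0% and 8.28% over all tested loci.

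In the median of each of the 7 role groups, replicate 1 was the highest and replicate 3 the lowest HS_SCR library. The median of Mki67 and Top2a was -0.19, -0.72 and -1.31 in HS_SCR replicates 1 to 3, and that of the cyclins A and B with Cdk1 was 0.29, -0.091 and -0.77. The 6 genes whose lowest HS_SCR library was not replicate 3 were Ccnd2, Cdk2, Mcm2, Mcm7, Rbl1 and Tyms, which include 4 of the 5 genes called. Tyms and Mcm7 were highest in replicate 3, and Ccnd2 and Rbl1 lowest in replicate 2. Of the 9 marker lists, 4 had the same order of summed levels in HS_SCR, with 8727, 5720 and 1346 FPKM for erythroid, 4561, 4467 and 3100 FPKM for macrophage, 146, 144 and 93.1 FPKM for lymphocyte and 407, 365 and 302 FPKM for endothelial markers in replicates 1 to 3. The thick ascending limb sum was lowest of all 9 libraries in HS_SCR replicate 3, at 1243 FPKM. Their part in the spread of the cell cycle genes was not tested.

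**Figure D3:**
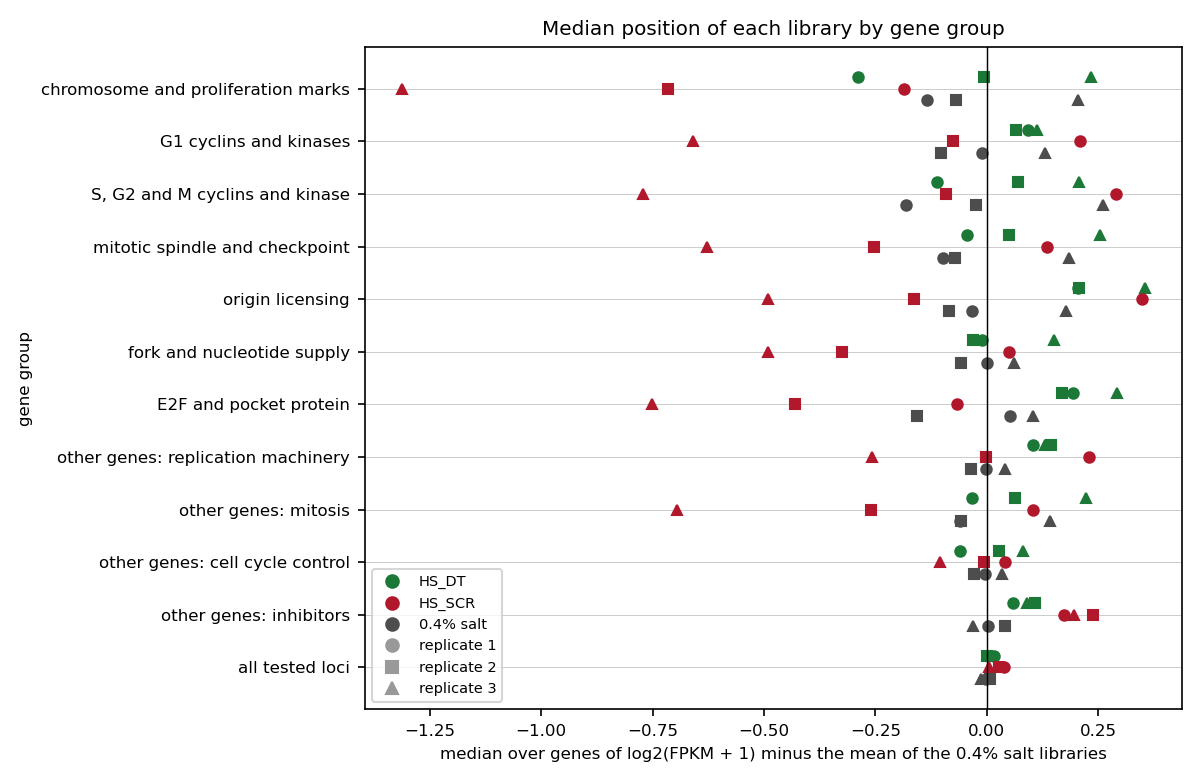
Median over the genes of each group (rows) of log2(FPKM + 1) minus the 0.4% salt mean, on the horizontal axis, with 1 symbol per library coloured by group. The HS_SCR libraries spread to -1.31 in the row of chromosome and proliferation marks, while the row of all tested loci stays near 0 for all 9 libraries.

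The comparison of HS_DT with HS_SCR asks what the GapmeRs to Dnmt3a and Tet3 add under high salt, with the caveat on their targets given above. No gene of the set passed limma with Benjamini-Hochberg adjustment, and 1 of 14338 loci did (0.00697%). At an unadjusted limma p under 0.05 there were 12 of 36 genes (33.3%), against 19.1% of all loci. The mean was higher in HS_DT for 34 of 36 genes (94.4%, against 49.6% of all loci), and the median log2 difference was 0.40, against -0.0019 over all loci. Ranges were apart for 9 genes (25.0%, against 21.6% of all loci). HS_DT lay wholly higher for 8 genes (22.2%, against 9.1% of all loci), which were Bub1b, Ccnd1, Ccnd2, Mcm2, Mcm4, Rbl1, Rrm1 and Tyms. It lay wholly lower for 1 gene, Mcm7 (2.78%, against 12.5%).

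The genes of the set with the smallest p were Ccnd1, Ccnd2 and the pocket protein gene Rbl1. Rbl1 was at 6.36, 6.04 and 7.60 FPKM in HS_DT, against 3.56, 2.80 and 3.56 FPKM in HS_SCR. The lowest HS_DT library was well above the highest of HS_SCR, and the log2 difference was 0.83 ± 0.12 (SE; 95% interval 0.56 to 1.11; limma adjusted p = 0.0644). Ccnd2 was at 21.2, 18.8 and 21.9 FPKM in HS_DT, against 14.5, 10.1 and 10.4 FPKM in HS_SCR, a difference of 0.79 ± 0.14 (SE, limma adjusted p = 0.0644). Ccnd1 was at 97.8, 85.8 and 82.3 FPKM in HS_DT, against 61.1, 52.2 and 33.7 FPKM in HS_SCR, a difference of 0.88 ± 0.20 (SE, limma adjusted p = 0.0833). All 3 genes had 3 of 3 HS_DT libraries above every HS_SCR library, and none passed the adjustment. Without HS_SCR replicate 3 these 3 and Tyms passed, with log2 changes from 0.53 for Tyms to 0.88 for Rbl1 and limma adjusted p from 0.0130 to 0.0219. These are 11.1% of the set, against 6.75% of all loci that rose in that fit. Without HS_SCR replicate 1, these 3 and Mcm2 passed (11.1%, against 0.488% of all loci), and the median of the 36 was 0.62, against 0.17 without HS_SCR replicate 3.

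In the other roles the differences were smaller or less even. Tyms was at 14.9, 16.5 and 19.8 FPKM in HS_DT and 11.3, 11.6 and 14.5 FPKM in HS_SCR, a log2 difference of 0.42 ± 0.12 (SE, limma adjusted p = 0.134). Rrm1 was at 25.3, 24.7 and 28.8 FPKM in HS_DT and 24.1, 21.0 and 18.7 FPKM in HS_SCR (0.30 ± 0.10, limma adjusted p = 0.180). Mcm2 was at 14.6, 14.2 and 14.01 FPKM in HS_DT and 12.9, 8.33 and 8.67 FPKM in HS_SCR (0.50 ± 0.15, limma adjusted p = 0.131). These 3 genes had ranges that were apart, with gaps that were small beside the spread of HS_SCR. Mki67 and Top2a stood at 0.74 ± 0.25 and 0.69 ± 0.29 (SE), and their ranges overlapped because HS_SCR replicate 1 lay within the HS_DT range. Mcm7 was at 19.2, 19.5 and 20.0 FPKM in HS_DT and 23.1, 21.1 and 23.5 FPKM in HS_SCR, a log2 difference of -0.19 ± 0.071 (SE, limma adjusted p = 0.192). Cdk2 was the only other gene with a lower mean in HS_DT, at -0.085 ± 0.10 (SE).

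The rats are numbered in 2 runs, a lower and a higher series, and no reason for this is labelled. HS_DT replicates 1 and 2 and HS_SCR replicates 1 and 2 are in the lower series, and the third rat of each group and all of 0.4% salt are in the higher one. With the series as a factor in the limma fit, Ccnd1, Ccnd2, Rbl1 and Tyms passed at unchanged log2 differences (adjusted p from 0.0385 to 0.0423), 11.1% of the set against 0.879% of all loci that rose. In the lower series, 2 libraries against 2, the mean was higher in HS_DT for 23 of 36 genes, against 48.1% of all loci. The median log2 difference was 0.093, against -0.012 over all loci. In the higher series, 1 library against 1, HS_DT was higher for 34 of 36 genes, against 50% of all loci. The median there was 0.97, against 1.6e-05 over all loci. The median difference was thus larger between the pair of replicates 3 than between the other libraries. In the higher series HS_SCR replicate 3 lay below the mean of 0.4% salt for 34 of 36 genes, with a median of -0.64. Over all loci it lay above that mean for 50.5%, with a median of 0.0055. With the series as a factor, HS_SCR against 0.4% salt again gave 1 gene that rose and 4 that fell. Their shares were 2.78% and 11.1%, against 5.88% and 3.32% of all loci. The log2 change was then -1.08 for Ccnd1, -0.77 for Ccnd2, -0.53 for Rbl1, -0.49 for Tyms and 0.36 for Mcm7.

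The comparison of HS_DT with 0.4% salt sets the GapmeRs under high salt against the rats before both. No gene passed limma, none of the 36 had an unadjusted p under 0.05 (against 7.49% of all loci), and 0 of all 14338 loci were called (0%). The median log2 difference of the 36 genes was 0.12, against 0.0056 over all loci, and the mean was higher in HS_DT for 30 genes (83.3%, against 51.4% of loci). The median was -0.037 once the fit held the rat number series. Ranges were apart for 6 genes (16.7%, against 23.8% of loci). HS_DT lay wholly higher for 5 genes, Mcm2, Mcm3, Mcm6, Mcm7 and Pcna (13.9%, against 14.2% of loci), and wholly lower for 1 gene, Tyms (2.78%, against 9.64%). The 7 origin licensing genes all had a higher mean in HS_DT, with log2 differences from 0.12 for Mcm7 to 0.40 for Mcm3. Mcm3 was at 8.94, 9.94 and 10.02 FPKM in HS_DT and 6.88, 6.23 and 8.20 FPKM in 0.4% salt. Its 95% interval of -0.20 to 0.99 included no difference (limma adjusted p = 0.776). The SE of a gene is pooled over all 3 groups, so the spread of HS_SCR enters this interval and every p of this comparison. The SD of Mcm3 was 0.60 FPKM in HS_DT, 1.00 in 0.4% salt and 3.42 in HS_SCR. With only the 2 groups compared in the fit, none of the 36 genes passed either, and 0.00697% of loci rose. Pcna was at 58.5, 59.9 and 61.9 FPKM in HS_DT and 50.7, 48.9 and 53.2 FPKM in 0.4% salt (0.23 ± 0.20, limma adjusted p = 0.828). Tyms, at 14.9, 16.5 and 19.8 FPKM in HS_DT and 20.9, 20.1 and 21.5 FPKM in 0.4% salt, had the lowest log2 difference of the set, at -0.28 ± 0.12 (SE, limma adjusted p = 0.665). For Ccnd1, Ccnd2 and Rbl1 the differences from 0.4% salt were 0.093, 0.042 and 0.17, and none passed. The 3 comparisons share their libraries in pairs, so their values for a gene are not independent of each other.

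**Figure D4:**
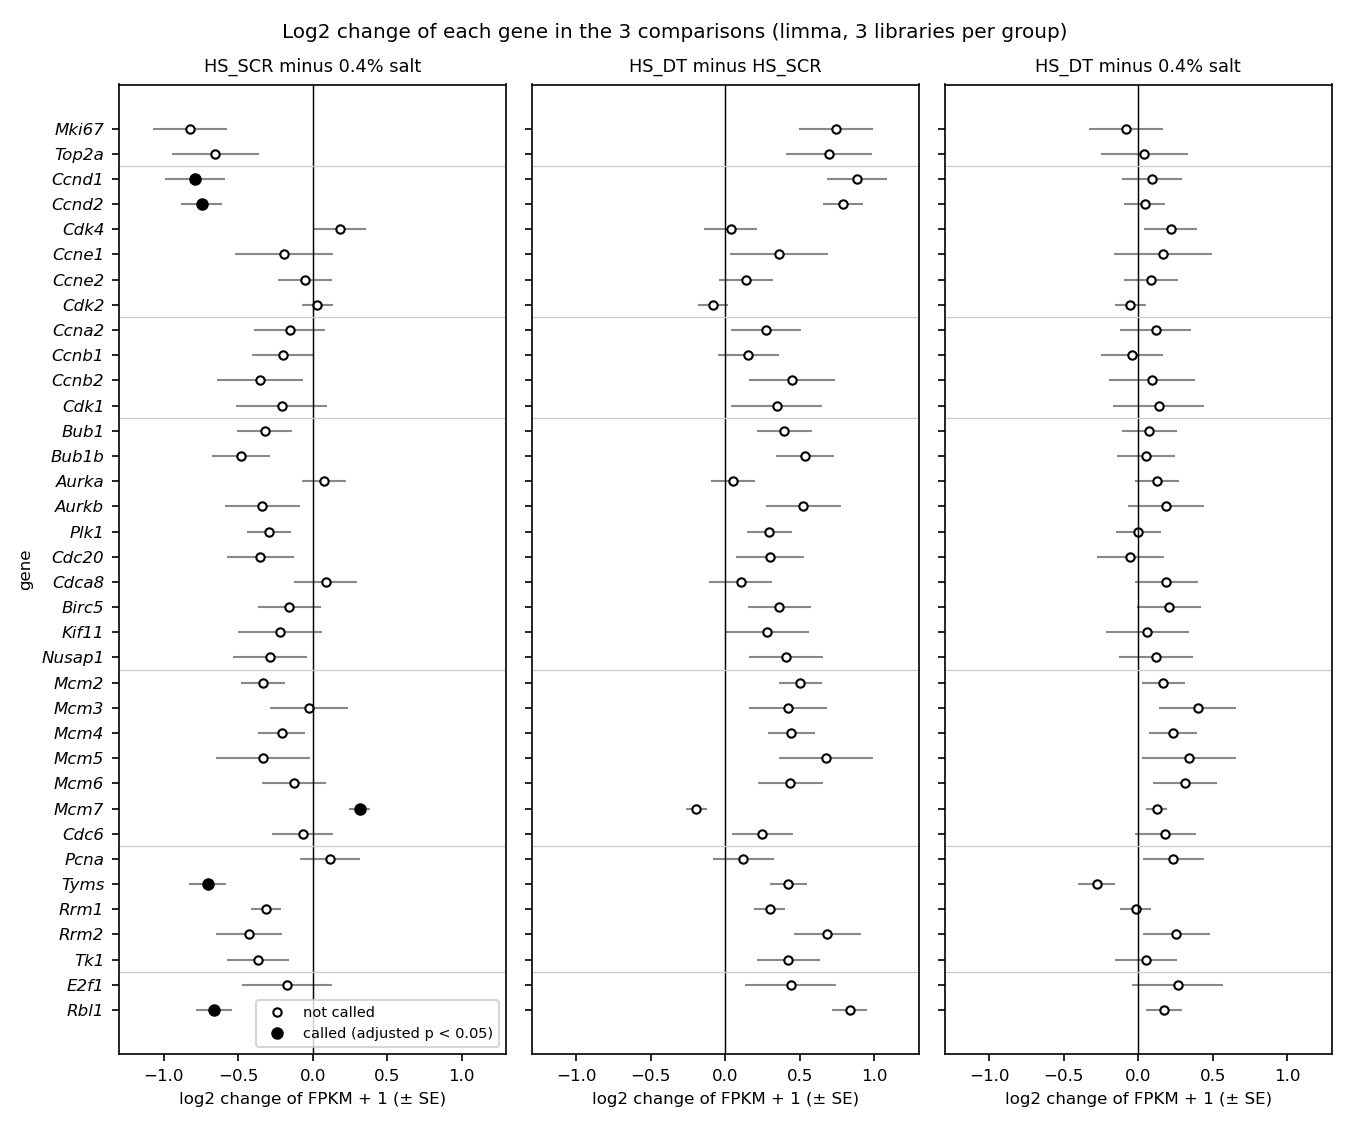
Log2 change of FPKM + 1 (horizontal axis) with its SE for each of the 36 genes (rows) in the 3 comparisons (panels). Filled symbols mark genes with a limma adjusted p under 0.05, of which there are 5, all in the panel of HS_SCR minus 0.4% salt.

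Other genes of the cycle were read from 4 lists. Of 40 tested genes of the replication machinery, 1 rose in HS_SCR against 0.4% salt and 1 fell, both of the single-strand binding complex. Rpa2 was at 15.7, 14.7 and 12.99 FPKM in HS_SCR and 11.1, 10.8 and 10.2 FPKM in 0.4% salt (log2 change 0.40 ± 0.091 SE, limma adjusted p = 0.0274). Rpa1 was at 36.8, 33.4 and 25.1 FPKM in HS_SCR and 43.7, 46.1 and 41.3 FPKM in 0.4% salt (-0.46 ± 0.13 SE, limma adjusted p = 0.0487). The groups did not overlap for either gene. Of 47 tested genes of mitosis, none rose and 2 fell: Racgap1, a cytokinesis regulator, with a log2 change of -0.74 ± 0.16 (limma adjusted p = 0.0220), and Smc2, a condensin subunit, with one of -0.53 ± 0.13 (limma adjusted p = 0.0306). The median over the mitosis list was -0.27. By library, relative to the 0.4% salt mean, it was 0.10, -0.26 and -0.69 in HS_SCR replicates 1 to 3. These 47 genes showed the same order of libraries as the 36, with HS_SCR replicate 3 the lowest of 9 for 40 and HS_SCR replicate 1 the highest of its group for 44.

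Among regulators, Myc, a transcription factor that promotes growth, rose, and so did 4 inhibitors of the cycle. Myc was at 32.1, 36.4 and 41.2 FPKM in HS_SCR, against 13.9, 16.9 and 16.6 FPKM in 0.4% salt. Its log2 change was 1.16 ± 0.14 (SE, limma adjusted p = 0.00566). Of 20 tested genes of cell cycle control, E2f6, a repressing E2F factor, also rose, by 0.26 ± 0.069 (limma adjusted p = 0.0418), and Lin52, a subunit of the DREAM complex, fell, with a log2 change of -0.40 ± 0.083 (limma adjusted p = 0.0195). Of 18 tested inhibitors, 4 rose and none fell, with a median of 0.21 over the list. Cdkn1a, the inhibitor p21, was at 11.4, 12.9 and 23.8 FPKM in HS_SCR and 6.79, 6.95 and 7.83 FPKM in 0.4% salt (0.99 ± 0.23 SE, limma adjusted p = 0.0280). All 3 HS_SCR libraries of Cdkn1a lay above 0.4% salt, with replicate 3 far above the other two. Cdkn1b, the inhibitor p27, was at 45.3, 53.7 and 52.9 FPKM in HS_SCR and 39.1, 41.4 and 38.2 FPKM in 0.4% salt (0.35 ± 0.087 SE, limma adjusted p = 0.0363). The stress gene Gadd45b rose by 1.02 ± 0.18 and the antiproliferative gene Btg1 by 0.56 ± 0.10 (SE; limma adjusted p = 0.0123 and 0.0140). Over the 4 lists, 7 of 125 genes rose (5.6%, against 8.2% of all loci) and 4 fell (3.2%, against 4.88%). Without HS_SCR replicate 3, 19 rose (15.2%, against 20.5% of loci) and 8 fell (6.4%, against 15.7%). Without HS_SCR replicate 1, 5 rose (4%, against 6.93% of loci) and 11 fell (8.8%, against 4.01%). Without 0.4% salt replicate 1, 1 rose (0.8%, against 2.29% of loci) and none fell (against 0.83%). Without 0.4% salt replicate 2, 1 rose (0.8%, against 1.8%) and none fell (against 0.621%). None passed once the fit held the proximal tubule score, which called no locus.

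In HS_DT against HS_SCR no gene of the 4 lists passed limma. The smallest unadjusted p belonged to Uhrf1 (log2 difference 0.81) and Rpa1 (0.37) in replication, Cenpf (0.58) and Aspm (0.45) in mitosis, Myc (-0.62) and Lin52 (0.29) in control, and Gadd45b (-0.64) and Btg1 (-0.32) among inhibitors. In HS_DT against 0.4% salt no gene of the lists passed either, and the smallest unadjusted p belonged to Rpa2 (0.24), Orc6 (0.34), Hmgb2 (0.24), Spc24 (0.38), Myc (0.53), Tfdp2 (-0.30), Cdkn1a (0.74) and Btg1 (0.24).

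Cell type markers moved in the same comparison of HS_SCR with 0.4% salt as the cell cycle calls. Of 12 tested proximal tubule markers, 6 fell. Sums are over all matched markers of a list, tested or not. The proximal tubule sum was 341 to 688 FPKM in HS_SCR and 1166 to 2429 FPKM in 0.4% salt. Of 10 thick ascending limb markers, 4 fell (sums of 1243 to 3200 FPKM in HS_SCR and 2816 to 4419 FPKM in 0.4% salt), and none of 9 collecting duct markers passed. Of 13 macrophage and myeloid markers, 8 rose (sums of 3100 to 4561 FPKM in HS_SCR and 1816 to 2111 FPKM in 0.4% salt). Of 5 tested erythroid markers, 4 rose (sums of 1346 to 8727 FPKM in HS_SCR and 506 to 779 FPKM in 0.4% salt). Tfrc, the other one tested, lay wholly lower in HS_SCR at a log2 difference of -0.41 but did not pass (limma adjusted p = 0.0874). Epor, Klf1 and the erythroid factor Gata1 were not tested, and Gata1 was near 0, at a mean under 0.1 FPKM across libraries. Of 3 tested neutrophil markers, 2 rose, with Mpo untested and near 0. Of 8 tested lymphocyte markers, 1 rose, with Cd79a untested and near 0. Of 8 endothelial markers, 2 rose, and none of 6 fibroblast and pericyte markers passed. In HS_DT the proximal tubule sum was 688 to 1590 FPKM and the macrophage sum 2973 to 3520 FPKM. The part of these markers in the values of the cell cycle genes was not tested.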

How the data were processed

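Total RNA of the renal outer medulla was extracted with Trizol and libraries were made on a NeoPrep system, per the labels' protocols. The authors deposited FPKM per locus in a single table. Per the submitters' processing notes, Cufflinks 2.2.1, Trim Galore 0.2.5 and the genome build rn5 were used. For aligner, annotation, strand use and scaling, nothing is stated: they were not given in the sources used here. Overlapping or antisense genes may share fragments. Columns were matched to libraries by the rat number in the titles. There was 1 further column of per-sample values, which repeats HS_DT replicate 3 at all 30315 loci and was not used. Read counts are not given, so depth is unknown and no counting interval was computed. Loci averaging under 0.15 FPKM gave the relative depth: there, ratios of small whole numbers of fragments explain 81.9% to 86.7% of the ratios between libraries within 2%.

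Values were tested as log2(FPKM + 1), which understates changes of low genes, at the 14338 loci averaging 1 FPKM or more. The test was limma 3.58.1 (R 4.3.3) with trend, two-sided, fitted to all 9 libraries together (6 residual degrees of freedom, or 8.54 moderated), with Benjamini-Hochberg adjustment over all tested loci. The libraries come from individual rats, so p rests on the spread between rats within groups, pooled over all 3 groups. The median coefficient of variation of the 36 genes was 8.84% in HS_DT, 33.4% in HS_SCR and 13.2% in 0.4% salt. The smaller spread of HS_DT thus enters the SE and p of HS_SCR against 0.4% salt. The script was tested on simulated data.

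The 36 genes, the gene lists and the marker lists were chosen with earlier results of these data known. Full values are given for genes called changed, and for genes with FPKM ranges apart in HS_SCR against 0.4% salt. They are also given for the most abundant gene of each role. E2f1, Mcm2, Mcm3, Mcm5, Ccnd3, Tfrc and the chr19 locus of Rrm2 were added after their values were seen. From each further list up to 4 called genes are named, or the 2 with the smallest p. Promoters were searched as letters on both strands, with all RefSeq promoters of the table as background. Alternatives were the pseudocount, the filter on low values, the scaling, the replicate block, the rat number series, the samples in the fit, library weights, a proximal tubule score and leaving out each library.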

Additional observations from a re-analysis of the deposited data

How the results depend on the processing

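Each result was recomputed under 21 alternatives. In HS_SCR against 0.4% salt the 1 gene that rose and 4 that fell became 0 and 2 when only those groups were fitted. In that fit 5.56% of the set fell, against 0.976% of all loci, and 2.27% of loci rose. It held fewer samples, and HS_DT did not enter its pooled spread. Both counts were 0 once the fit held the proximal tubule score. Leaving out 1 library gave 0 to 2 genes that rose and 0 to 7 that fell. Without HS_SCR replicate 1, 7 fell (19.4%, against 4.01% of all loci), with Mcm2, Mki67 and Rrm1 added. Without HS_SCR replicate 3, 2 rose, with Pcna added (5.56%, against 20.5% of loci), and 4 fell (11.1%, against 15.7%). Both shares were below those of all loci. None of the set rose or fell without 0.4% salt replicate 1 or replicate 2. Of all loci, 2.29% and 1.8% rose there, and 0.83% and 0.621% fell. Over the alternatives Rbl1 and Tyms were called in 18, Ccnd2 in 17, Mcm7 in 14 and Ccnd1 in 11, and none of these 5 changed sign. In HS_DT against HS_SCR, 2 of 25 tested genes rose at a minimum mean of 5 FPKM (8%, against 0.31% of loci), 4 with rat number series in the model (11.1%, against 0.879%) and 5 with library weights (13.9%, against 4.34%). Leaving out 1 library gave 0 to 4, with 4 without HS_SCR replicate 1 or replicate 3. In HS_DT against 0.4% salt, library weights gave 1 gene that rose (Mcm3, 0.44; 2.78%, against 8.22% of loci) and 1 that fell (Tyms, -0.31; 2.78%, against 4.37%). Without HS_SCR replicate 3 the median of the set in HS_SCR against 0.4% salt was nearer 0 (-0.014) than that in HS_DT against 0.4% salt (0.12). The cause of these shifts was not tested. With the replicate number as a block the counts were again 1 and 4, 0 and 0, and 0 and 0, and no call among the 36 changed; in the further lists 7 rose and 3 fell. Residuals correlated above 0.1 in 5 of 9 same-numbered pairs (-0.076 to 0.26) and in 2 of 18 other pairs (-0.31 to 0.24). A library correlated best with its own number in 12 of 18 cases. Same-numbered libraries were thus more often alike than others, and the reason was not tested. The labels do not say that replicate numbers pair rats, so the main fit was unpaired and the block was an alternative.

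The differences below, which changed sign, were uncalled with all libraries and the settings of the report; among their alternatives Pcna was called in HS_SCR against 0.4% salt without HS_SCR replicate 3. In HS_SCR against 0.4% salt these were Pcna at -0.0055 (quantile normalization) and -0.11 (rat number series), Cdk4 at -0.074 (series) and -0.063 (proximal tubule score), and Cdk1 at 0.034 (library weights). Over left-out libraries Cdk1 ran from -0.52 to 0.15 and Pcna from -0.12 to 0.37. In HS_DT against HS_SCR they were Cdk4 at -0.067 and Pcna at -0.022 (library weights), and over left-out libraries Cdk4 from -0.16 to 0.21, Cdk1 from -0.017 to 0.65 and Pcna from -0.13 to 0.36. In HS_DT against 0.4% salt, the series gave Ccnd1 -0.20, Top2a -0.21, Cdk4 -0.040 and Cdk1 -0.11 and a median of -0.037 over the 36 genes, in place of 0.12; library weights gave Ccnd2 -0.043, and the proximal tubule score gave Ccnd2 -0.019 and Rrm1 0.021. Over left-out libraries Ccnd2 ran from -0.0015 to 0.11, Cdc20 from -0.14 to 0.051, Mki67 from -0.23 to 0.067, Rrm1 from -0.083 to 0.024 and Top2a from -0.067 to 0.16. With unknown depth, genes near 1 FPKM such as Cdc6 are the least precise.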
